A study of Mus musculus with 14 samples.

Results

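The genes described here encode voltage-gated ion channels and the channels that share their naming families. They were taken by symbol: every listed mouse gene whose symbol starts with Kcn, is Scn followed by digits and a or b, or starts with Cacna, Cacnb, Cacng or Hcn followed by digits. Of the 16060 genes in either full table, 95 were members. At day 10 (D10) 91 were listed and at day 5 (D5) 78 were listed, with 74 listed on both days. The symbol rule reaches past its label. By gene family, 71 of the 95 were counted as pore-forming or auxiliary subunits of voltage-gated channels. They include the Cacng genes, whose family also serves AMPA receptors. The other 24 were not so counted. Those 24 are inward rectifiers (Kcnj), leak channels with tandem pores (Kcnk), calcium-activated potassium channels and their subunits (Kcnn, Kcnma, Kcnmb), the sodium-activated Kcnt2 and the long non-coding RNAs Kcnq1ot1 and Kcnmb4os1. Kcnma1 is counted among the 24 although its channel opens to both calcium and voltage.

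Voltage-gated channels open when the membrane potential changes. Sodium channels carry the upstroke of the action potential, potassium channels repolarise the cell and set its firing pattern, and calcium channels turn electrical activity into calcium entry. Their pore-forming subunits work with auxiliary subunits that control trafficking and gating. In developing neurons the set of channels changes as cells leave the cell cycle and become excitable, and several of the potassium and T-type calcium channels are already used by progenitors.

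The samples came from 1 mouse embryonic stem cell line, GLI1-FTA, of the A2Lox.cre background, differentiated towards neurons. GLI1 is the transcriptional activator at the end of the Hedgehog pathway, and in this line doxycycline switches on a GLI1 transgene. The D10 cells, immature neurons by their labels, gave 3 GLI1-induced and 3 control samples. The D5 cells, neural progenitors by their labels, gave 4 GLI1-induced and 4 controls. Induced cultures received doxycycline at 500 ng/ml for 48 hours, between days 3 and 5, so the D10 samples were taken 5 days after it was washed out. Control cultures carry the same transgene and received no doxycycline, so GLI1 and the drug cannot be told apart. All samples come from 1 line, and nothing in the labels says that samples of a group were separate cultures, so the p-values measure only the spread between these samples.

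Polyadenylated RNA was sequenced from each sample, and only per-gene comparisons were used. For each gene the authors' deposited tables hold a log2 fold change (GLI1-induced over control), an average log2 CPM (read counts scaled to a common library total) over the samples of that day, a p-value and an adjusted p. No value per sample was used here, so the depth is unknown, and the mean and spread of each group are not given. The standard error (SE) beside each fold change was derived here from the authors' p-value and is no SD between samples. A gene is called changed where the authors' adjusted p is under 0.05.

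The induced gene itself was checked first. Gli1 stood at a log2 fold change of 0.57 at D10 (SE 0.18, adjusted p = 0.780) and of 4.79 at D5 (SE 0.25, 27.8-fold, adjusted p = 1.12e-81) in the authors' deposited tables. Gli1 had thus risen at D5. At D10 it did not pass the test after adjustment, with an unadjusted p of 0.00161 in the authors' deposited table. The missing call does not show a return to the control level. Defining neuronal markers were present on both days: all 14 on the list were listed, and their average levels summed to 2760 CPM at D10 and 1041 CPM at D5. The neural progenitor markers, all 10 listed on both days, summed to 1469 CPM at D10 and 2080 CPM at D5. Markers of other cells were listed too. The endoderm markers summed to 1913 CPM at D10 (12 of 12 listed) and 1026 CPM at D5 (11 of 12 listed), and those of cardiac and skeletal muscle to 170 CPM at D10 (6 of 11 listed) and 22.9 CPM at D5 (5 of 11 listed). In bulk RNA, fewer cells of a type and less RNA per cell cannot be told apart.

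The upstream sequence is shown for 3 members: Kcnh1 and Kcnma1, the called members for which a promoter window was found, and Cacnb4, the member whose window holds the GLI core motif. Each window runs from 250 bases before to 50 bases after a RefSeq transcript start on GRCm38.p6, written 5′ to 3′ on the gene's own strand. Capitals mark the motif. Kcnh1 is at chr1:192190527-192190826 on the plus strand, Kcnma1 at chr14:24004156-24004455 on the minus strand and Cacnb4 at chr2:52675810-52676109 on the minus strand.
Kcnh1: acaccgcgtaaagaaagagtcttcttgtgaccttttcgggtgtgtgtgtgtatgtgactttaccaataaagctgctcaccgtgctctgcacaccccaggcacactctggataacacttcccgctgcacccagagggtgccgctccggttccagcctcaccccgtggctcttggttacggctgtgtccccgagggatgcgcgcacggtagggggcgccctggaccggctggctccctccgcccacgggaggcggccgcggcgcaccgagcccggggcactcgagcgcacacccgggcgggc
Kcnma1: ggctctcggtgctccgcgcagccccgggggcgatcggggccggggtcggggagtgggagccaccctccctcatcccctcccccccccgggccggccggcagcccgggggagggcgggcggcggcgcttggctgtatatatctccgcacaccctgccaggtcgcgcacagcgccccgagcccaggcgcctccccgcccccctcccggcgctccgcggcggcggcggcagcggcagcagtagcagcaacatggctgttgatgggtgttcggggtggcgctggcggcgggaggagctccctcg
Cacnb4: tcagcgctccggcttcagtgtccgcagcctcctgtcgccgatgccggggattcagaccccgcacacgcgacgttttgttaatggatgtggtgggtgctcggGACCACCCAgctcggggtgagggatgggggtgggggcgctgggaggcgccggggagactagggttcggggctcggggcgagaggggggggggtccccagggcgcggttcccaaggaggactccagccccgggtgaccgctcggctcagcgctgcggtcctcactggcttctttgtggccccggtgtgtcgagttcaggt
The motif searched was GACCACCCA on both strands, which reads TGGGTGGTC in reverse. These letters stood in 83 of 32851 windows (0.253%), and in 1 of the 96 windows of the 66 members that had one (1.04%). That match, in Cacnb4, starts at base 102 of the window, 149 bases before the transcript start. Cacnb4, a beta subunit that brings calcium channels to the membrane, had a log2 fold change of 0.37 at D5 (SE 0.34) in the authors' deposited table, which did not pass the test. Windows of members were richer in G and C than all windows, with a median of 60% against 52.7%, and held a median of 11.5 against 7 CG dinucleotides. The Kcnh1, Kcnma1 and Cacnb4 windows held 27, 36 and 27 of them, at a GC content of 66%, 78% and 69.7%.

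At D5, at the end of the pulse, 6 of the 78 listed members differed between GLI1-induced and control cells in the authors' deposited table. Among them, Kcnma1 and Cacna1h rose, and Kcna1, Kcnh1 and Cacna1g fell. The share called was 7.69%, where 4.44% of all genes were called. Higher calls made up 2.56% of members and 2.34% of all genes, and lower calls 5.13% of members and 2.1% of all genes. At an unadjusted p under 0.05 there were 16 members (20.5%), against 10.7% of all genes. Voltage-gated subunits in the narrow sense accounted for 5 of the 6 calls, among 57 listed.

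**Figure D1:**
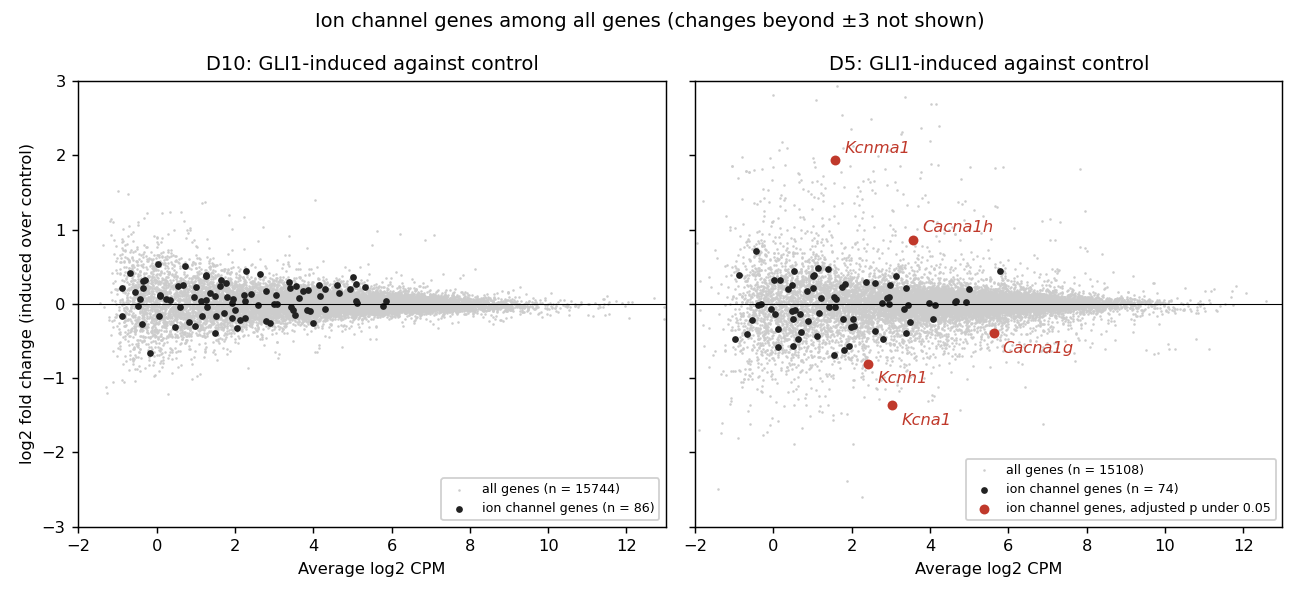
Log2 fold change (GLI1-induced over control, vertical axis) against average log2 CPM (horizontal axis) at D10 (left) and D5 (right), with all genes in grey, the channel genes drawn (86 at D10 and 74 at D5) in black and the called ones in red and named. The axis ends at log2 changes of 3 either way, so genes beyond it are not drawn. The called genes drawn at D5 lie from -1.36 (Kcna1) to 1.94 (Kcnma1), and at D10 none was called.

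Kcna1 had the strongest evidence of a change. It encodes a delayed-rectifier potassium channel subunit that restrains excitability along axons. Its log2 fold change at D5 was -1.36 in the authors' deposited table (SE 0.20, 95% interval -1.75 to -0.97, adjusted p = 8.19e-10), which is 2.57-fold lower in GLI1-induced cells. The gene lies on chromosome 6, at 126640397 to 126646384 on the minus strand (GENCODE M21 on GRCm38), and its average level at D5 was 3.04 log2 CPM. The other listed Kcna members were not called, with D5 log2 fold changes of 0.48 (Kcna3), 0.39 (Kcna5) and -0.21 (Kcna6) in the authors' deposited table. Kcna1 was the 1 called member among the 10 listed pore-forming subunits of the Kcna to Kcnd families. Of those 10, 8 lay above 0, with a median log2 fold change of 0.31, against 0.0015 over all genes. Kcnd3, an A-type channel gene, was at 0.37 (unadjusted p = 0.0493) in the authors' deposited table.

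Kcnh1 encodes a channel of the ether-à-go-go (EAG) family, which is found in neurons and in dividing cells. It had a log2 fold change of -0.80 at D5 in the authors' deposited table (SE 0.19, 95% interval -1.17 to -0.43, adjusted p = 0.00118), 1.74-fold lower in GLI1-induced cells. It lies on chromosome 1, at 192190774 to 192510159 on the plus strand. The other 4 listed EAG-family genes did not pass the test. Kcnh2, which encodes the rapid delayed rectifier of the heart and is the most abundant of the family per length, stood at 0.04 (SE 0.12) in the authors' deposited table.

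Kcnq5, which encodes a subunit of the M-current, a slow potassium current that damps repetitive firing, had a log2 fold change of -0.57 at D5 (SE 0.23, unadjusted p = 0.0116) in the authors' deposited table. It was not called after adjustment (adjusted p = 0.175, from the authors' deposited table).

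The other members of the voltage-gated potassium group gave no call at D5. The silent subunits, which form channels only together with other potassium channel subunits, were all 3 below 0, and the smallest p was that of Kcng1 (-0.48, unadjusted p = 0.0253) in the authors' deposited table. Among the 6 listed auxiliary subunits, 4 were above 0, and the smallest p was that of Kcnip3 (0.25, unadjusted p = 0.129), a calcium-binding partner of A-type channels, in the authors' deposited table.

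Calcium channels gave 1 call in each direction, both T-type. T-type channels open at low voltage and pass calcium near the resting potential. Cacna1h had a log2 fold change of 0.87 at D5 in the authors' deposited table (SE 0.20, 95% interval 0.47 to 1.26, adjusted p = 0.00112), 1.82-fold higher in GLI1-induced cells. Cacna1g, which encodes the other listed T-type pore at D5, had a log2 fold change of -0.39 there (SE 0.11, 95% interval -0.61 to -0.18, adjusted p = 0.0126 in the authors' deposited table), 1.31-fold lower. The 95% intervals of these changes lie on opposite sides of 0. Cacna1h lies on chromosome 17 at 25374285 to 25433783 and Cacna1g on chromosome 11 at 94408391 to 94474198, both on the minus strand. Per length of exon, the average level at D5 was 1.21 CPM per kb for Cacna1h and 4.85 CPM per kb for Cacna1g.

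The high-voltage-activated calcium channel pores (Cacna1a to Cacna1e) had D5 log2 fold changes between -0.31 (Cacna1d) and 0.02 (Cacna1a) in the authors' deposited table, and none passed. Their auxiliary subunits gave no call either. Cacna2d3, an alpha2delta subunit that raises channel number at the membrane, had a log2 fold change of -0.63 (SE 0.26, unadjusted p = 0.0166, adjusted p = 0.226) in the authors' deposited table. Cacnb1, the beta subunit best known from skeletal muscle, had -0.36 (unadjusted p = 0.0829), and Cacng5, of the gamma family that also serves AMPA receptors, had -0.58 (unadjusted p = 0.102) in the same deposited table of the authors. The medians of these families were -0.07 for the 3 alpha2delta genes, 0.20 for the 4 beta genes and -0.24 for the 3 gamma genes.

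Sodium channel genes gave no call at D5. Among the 6 listed pore-forming genes 3 lay above and 3 below 0, with a median log2 fold change of 0.08. The smallest p belonged to Scn8a, the main pore at nodes and axon initial segments of mature neurons (0.20, SE 0.10, unadjusted p = 0.0423, adjusted p = 0.427 in the authors' deposited table). Among the 4 beta genes it belonged to Scn4b (0.71, SE 0.40, unadjusted p = 0.0788 in the authors' deposited table), which was listed at D5 and not at D10. The 3 listed HCN genes, whose pacemaker channels open on hyperpolarisation, were all above 0 and none passed. Hcn3 came nearest, at 0.30 (unadjusted p = 0.122) in the authors' deposited table.

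Among the members that are not voltage-gated in the narrow sense, Kcnma1 was the call. It encodes the pore of the large-conductance potassium channel (BK), opened by calcium and voltage. Its log2 fold change at D5 was 1.94 in the authors' deposited table (SE 0.30, 95% interval 1.34 to 2.53, adjusted p = 2.06e-08), 3.83-fold higher in GLI1-induced cells. No other member had a log2 fold change of this size on either day. It lies on chromosome 14, at 23289431 to 24014491 on the minus strand, and was weakly expressed, at an average of 1.58 log2 CPM. Kcnmb4, a beta subunit of the same channel, stood at 0.23 (SE 0.25) by the authors' deposited table, short of a call.

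The remaining families stayed without a call. For the small-conductance channels, activated by calcium alone, the authors' deposited table gave the smallest p to Kcnn3 (0.46, unadjusted p = 0.0494). For the inward rectifiers, which hold the resting potential, it was that of Kcnj2 in the authors' deposited table (-0.69, unadjusted p = 0.0142), and 5 of the 6 listed Kcnj genes lay below 0. For the leak channels it was that of Kcnk1 (-0.40, unadjusted p = 0.0574), with 5 of 7 below 0 in the authors' deposited table. Kcnq1ot1, an imprinted non-coding RNA read antisense to Kcnq1, had the smallest adjusted p of the 72 members not called (0.45, SE 0.17, adjusted p = 0.140 in the authors' deposited table). Kcnq1 itself was not listed on either day.

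**Figure D2:**
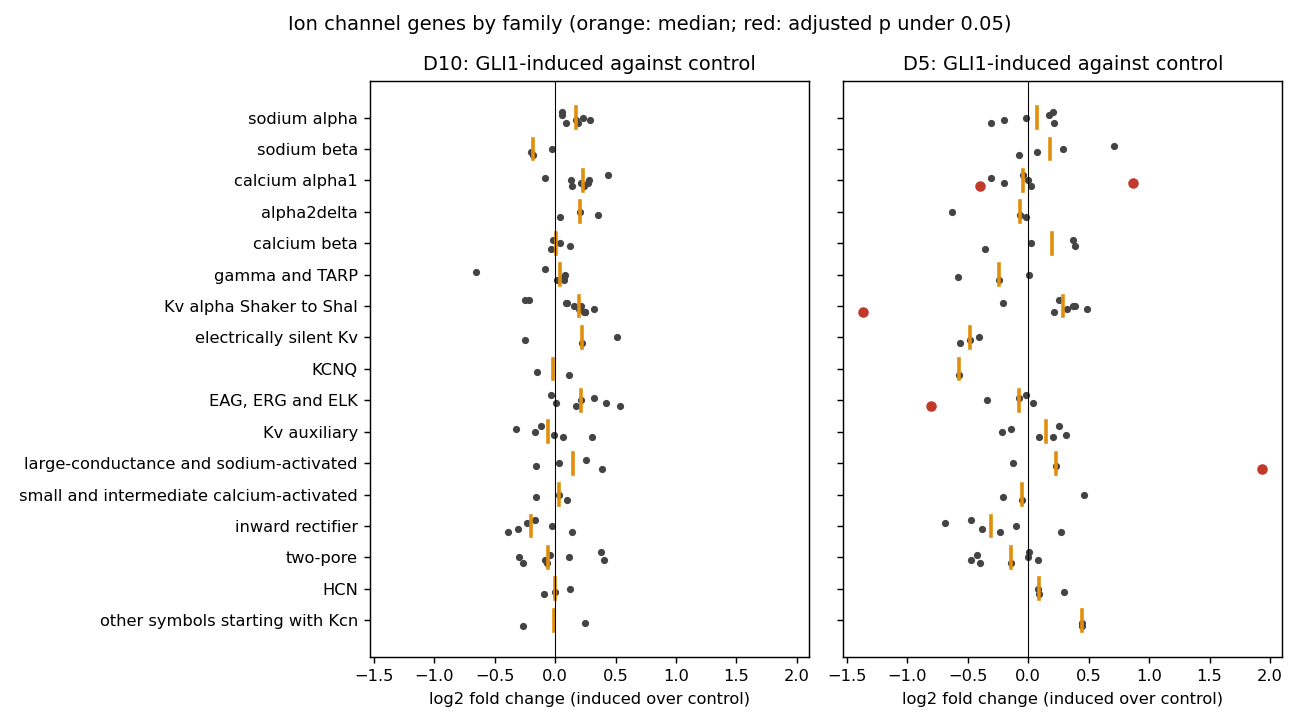
Log2 fold change (GLI1-induced over control, horizontal axis) of the channel genes drawn (86 at D10 and 74 at D5), by family (rows), at D10 (left) and D5 (right), with points spread vertically only for visibility, called genes in red and the median of those drawn as an orange bar. At D5 the 3 silent genes lie below 0 and the 3 HCN genes above 0, and at D10 the 7 sodium alpha genes lie between 0.05 and 0.29, with none called.

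The 72 uncalled members had D5 log2 fold changes between -0.69 and 0.71 in the authors' deposited table, and a p that misses the threshold does not show that a gene did not differ. The precision behind these values was limited. The median SE was 0.25 over the members and 0.13 over all genes at D5. At the median SE of the 52 members with an average of at least 1 log2 CPM, a log2 change of about 0.63 was needed for a call. For the 26 members below that level it was 1.04.

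The calls differ in how firmly they pass. With the stricter Holm adjustment of the authors' p-values over all genes, Kcna1 and Kcnma1 were still called, while Cacna1h (adjusted p = 0.320), Kcnh1 (0.339) and Cacna1g (1) were not. Exons of Kcnma1 overlap the gene 4930519K11Rik on the opposite strand, and those of Cacna1h overlap Tpsg1 on the opposite strand. Neither neighbour was listed on either day, and whether reads were counted by strand was not given in the sources used here. Exons of 33 of the 95 members overlap another annotated gene, among them the antisense pair Kcnmb4 and Kcnmb4os1.

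Some markers of neurons were lower at D5, as Kcna1, Kcnh1 and Cacna1g were. Of the 14 markers, 7 were lower in GLI1-induced cells and none higher in the authors' deposited table. The median of the 14 log2 fold changes was -0.40. The called ones were Nefm (-1.61), Nefl (-1.11), Gap43 (-0.70), Mapt (-0.53), Ina (-0.45), Tubb3 (-0.41) and Stmn2 (-0.39). The other 7 were not called: Syt1 (-0.46), Map2 (-0.28), Snap25 (-0.02), Dcx (-0.003), Elavl3 (0.05), Elavl4 (0.11) and Rbfox3 (0.53). Of 10 progenitor markers 1 was higher, the glutamate transporter gene Slc1a3 (1.11), with a median of 0.02 over the list. Of 11 listed genes of the endoderm list 2 were higher (Foxa2 1.37, Apob 0.60) and 3 lower (Gata4 -0.78, Gata6 -0.67, Dab2 -0.57), all in the authors' deposited table. That list thus moved in both directions, and whether the changes, that of Foxa2 among them, arose in endoderm cells was not tested. Among the other lists, Dppa5a of the pluripotency list (-0.73) and Pou4f1 of the neural crest and sensory list (-0.93) were lower, and none of the 5 muscle, 4 glial and 3 endothelial markers listed was called. The part of these cells in the channel results was not tested.

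**Figure D3:**
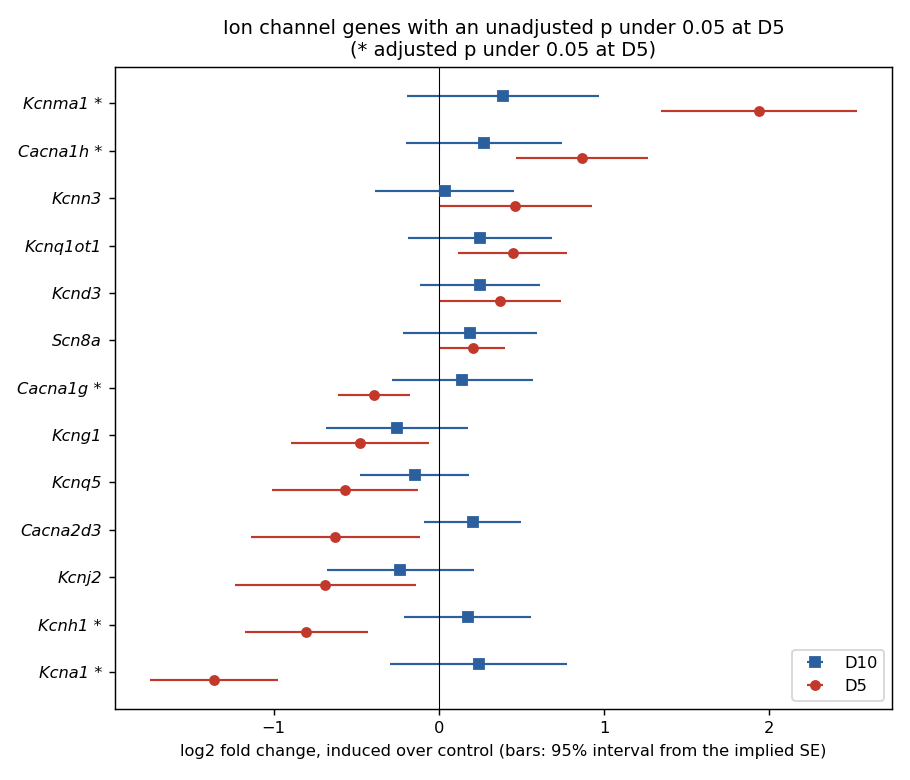
Log2 fold change (GLI1-induced over control, horizontal axis) of 13 channel genes with an unadjusted p under 0.05 at D5 (rows, called ones starred) at D10 (squares) and D5 (circles), with bars for the 95% interval from the implied SE. The D10 interval of Kcna1 reaches from -0.30 to 0.78, above its D5 interval of -1.75 to -0.97.

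At D10, 5 days after the pulse, none of the 91 listed members was called by the authors' test, where 0.0826% of all genes were. None had an unadjusted p under 0.05 either, a level reached by 1.53% of all genes, and none was called after the z values were rescaled. Every member's adjusted p was 1 in the authors' deposited table. Their log2 fold changes ran from -0.66 (Cacng5) to 0.53 (Kcnh7, an EAG-family gene), and the smallest unadjusted p was 0.0701 for Cacna2d2 (0.36, SE 0.20), an alpha2delta gene. With 3 samples a group, and at the median SE of the 63 members of at least 1 log2 CPM, a log2 change of about 1.05 was needed for a call at D10. At that SE, a smaller estimated change would not have been called, and this limit depends on the authors' test. The lack of calls therefore does not show that no member differed.

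These genes called at D5 lay nearer 0 at D10. In the authors' deposited table for D10, Kcna1 was at 0.24 (SE 0.27) and Kcnma1 at 0.39 (SE 0.30, 95% interval -0.19 to 0.97). Kcnh1 was at 0.17 (SE 0.20), Cacna1h at 0.27 (SE 0.24) and Cacna1g at 0.14 (SE 0.22), again in the authors' deposited table. Of the genes above 1 log2 CPM, the highest at D10 included Cacna1e (0.44), the R-type calcium pore, the leak channel genes Kcnk10 (0.41) and Kcnk3 (0.38), and Kcnma1, in the authors' deposited table. The lowest were Kcnj4 (-0.39), Kcnip1 (-0.32), Kcnk5 (-0.26), Kcng1 (-0.25) and Kcnj2 (-0.23) there. None of them passed the test.

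More members lay above 0 than below it at D10, 58 against 33 (63.7%), where 51.1% of all genes lay above 0. At D5 it was 36 against 42 (46.2%), where 50.5% of all genes lay above 0. The median log2 fold change of the members was 0.07 at D10 and -0.02 at D5. All 7 listed sodium channel pore genes were above 0 at D10, at a median of 0.17 and between 0.05 and 0.29 in the authors' deposited table. So were 11 of 13 pore genes of the Kcna to Kcnd families (median 0.19), 7 of 8 calcium pore genes (0.23) and 6 of 7 EAG-family genes (0.21). The 3 sodium beta genes and 5 of 6 inward rectifiers lay below 0. None of these values passed on its own, and genes are not replicates, so the counts describe these samples.

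Whether the response differed between the days was tested directly, by subtracting the log2 fold change at D5 from that at D10, with SEs taken from the authors' p-values. The days share no samples. Of the 74 members listed on both days, 3 differed (4.05%), where 1.24% of all genes did, and all 3 lay closer to 0 at D10. By these tests, built on p-values of the authors, Kcna1 differed by 1.60 (SE 0.34, adjusted p = 0.000382), Kcnma1 by -1.55 (SE 0.42, adjusted p = 0.0249) and Kcnh1 by 0.98 (SE 0.27, adjusted p = 0.0309). From the same p-values of the authors, the response of Cacna1h was not shown to differ between the days (-0.59, SE 0.31, adjusted p = 1), nor that of Cacna1g (0.54, adjusted p = 0.734) or Cacna2d3 (0.83, adjusted p = 0.282). For 4 members a p of 1 on 1 day gave no SE, and they were entered as no difference. Of the 74, 41 had the same sign on both days (55.4%), against 58.7% of all genes.

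Partners of the channels were counted as a separate list of 49 genes, most of them for proteins that bind, cluster, anchor or regulate them. The list also holds channel genes outside the symbol rule, with their subunits: Nalcn, Unc79, Unc80, Hvcn1, Tpcn1 and Tpcn2. None of the 46 listed at D10 was called. At D5, 37 were listed, and 3 were higher and 3 lower in GLI1-induced cells (16.2%, against 4.44% of all genes) in the authors' deposited table. The median of the 37 log2 fold changes was -0.01. Fgf14, an intracellular fibroblast growth factor that binds sodium channels, had a log2 fold change of 2.93 (SE 0.28, 7.60-fold higher, adjusted p = 8.86e-23 in the authors' deposited table). Nalcn, the sodium leak channel, was 2.24-fold higher (1.16, adjusted p = 4.74e-07), and Dpp6, an auxiliary subunit of A-type channels, was also higher (0.53, adjusted p = 0.0325), both in the authors' deposited table.

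The 3 partner genes that fell all encode cell adhesion molecules of the axon. In the authors' deposited table for D5, Cntn2 had a log2 fold change of -1.0 (SE 0.20, adjusted p = 6.6e-05), Cntnap2 of -0.87 (SE 0.21, adjusted p = 0.00171) and Nfasc of -0.48 (SE 0.10, adjusted p = 0.000151). Cntn2 and Cntnap2 encode the proteins that hold channels of the Kcna1 product in place beside nodes of myelinated axons, and Nfasc anchors sodium channels at nodes and initial segments. Computed from the authors' p-values, the D10 minus D5 difference passed for Fgf14 (-2.60, adjusted p = 2.24e-08) and Cntn2 (1.01, adjusted p = 0.0330).

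The average level over induced and control samples together was higher at D10 than at D5 for 49 of the 74 members (66.2%), against 50.4% of all genes. These levels are averages from the authors' deposited tables, which were normalised separately for each day and give no spread, so no test was made. The median D10 minus D5 difference of the average log2 CPM was 0.56 over members and 0.0053 over all genes. At least 1 log2 unit higher at D10 were 25 members (33.8%, against 12.2% of all genes), and at least 1 lower were 8 (10.8%, against 5.69%).

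The 4 largest differences in level were those of auxiliary and calcium-activated channel genes. In average log2 CPM of the authors' deposited tables, Scn3b, a sodium channel beta subunit, was at 5.78 at D10 and 2.60 at D5. Cacna2d3 was at 4.93 at D10 and 1.80 at D5, and Kcnn1, a small-conductance channel gene, at 4.17 at D10 and 1.41 at D5, in the authors' deposited tables. Next came Kcnip1 (by 2.60), an A-type channel partner, then Hcn2 (by 2.38), a pacemaker channel, and Kcna5 (by 2.36), a delayed rectifier. The opposite end included Kcna3 (-0.89 at D10 and 1.13 at D5), a delayed rectifier best known from T cells, and Kcnq1ot1 (4.14 at D10 and 5.78 at D5), both in the authors' deposited tables.

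By family, the median D10 minus D5 difference in average log2 CPM was 1.97 for the sodium beta genes, 1.67 for alpha2delta, 1.5 for the auxiliary potassium subunits and 1.06 each for sodium pores, calcium beta subunits and leak channels. It was -0.55 for the calcium pores and -0.50 for the 3 BK and sodium-activated genes. The T-type pair again ran in opposite directions: the level of Cacna1h was 2.90-fold higher at D10 than at D5, and that of Cacna1g 1.94-fold lower. The level of Kcna1 was lower at D10 by 1.42 on the log2 scale. These are differences of average levels between days, over induced and control samples together, and they test no response to GLI1. For a gene called at D5, such as Kcna1, Cacna1h or Kcnma1, the D5 average includes its change in the induced samples. The difference between days is then not that of control cells alone.

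**Figure D4:**
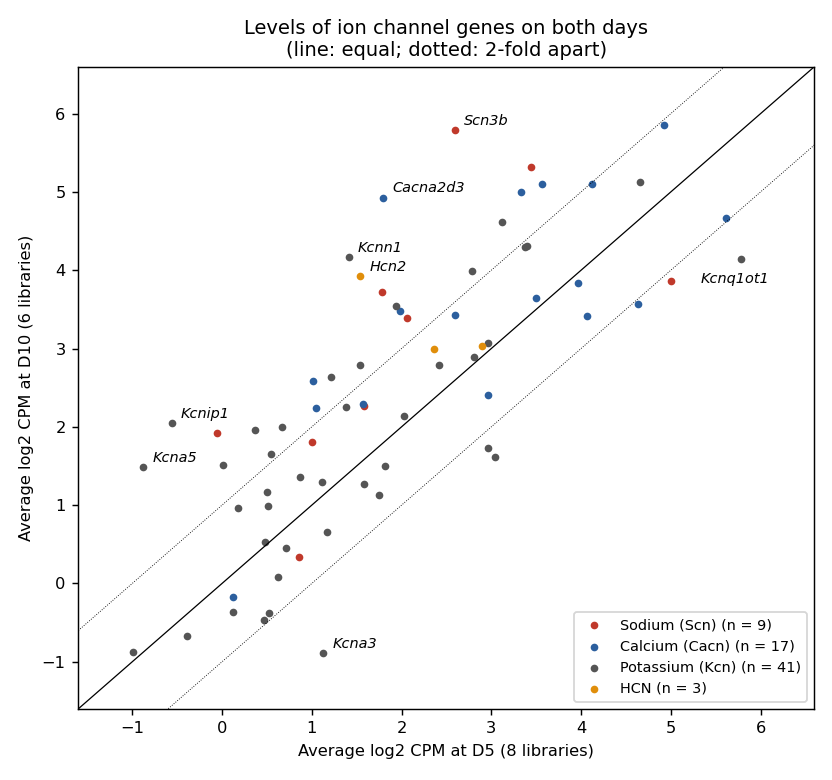
Average log2 CPM of each channel gene at D10 (vertical axis) against D5 (horizontal axis), over induced and control samples together, with 1 point a gene, colours for channel type a line of equal levels and dotted lines 2-fold from it. Of the 70 genes drawn, 48 lie above the line, Scn3b farthest above it (5.78 against 2.60), and Kcna3 lies farthest below it (-0.89 against 1.13).

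Levels of different genes were compared only per length, as CPM per kb of merged exons (GENCODE M21). They too are averages over induced and control samples together. At D10 the highest was Cacnb3, a calcium channel beta subunit of neurons (14.5 at D10 and 7.58 CPM per kb at D5), followed by Scn3b (10.1 at D10 and 1.11 at D5) and Kcnk1 (8.87 at D10 and 4.70 at D5). Cacnb3 also led at D5. After it came Cacng7 (5.88 at D10 and 6.41 CPM per kb at D5), Kcnh2 (7.2 at D10 and 5.22 at D5) and Cacna1g (2.50 at D10 and 4.85 at D5). The most abundant sodium channel pore was Scn3a at D10 (3.2 CPM per kb), a pore of immature neurons, and Scn8a at D5 (2.03 CPM per kb). Kcna1 was at 0.640 CPM per kb at D10 and 1.72 at D5, and Kcnma1 at 0.142 at D10 and 0.176 at D5. The 3.83-fold rise of Kcnma1 was thus in a gene of low abundance.

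**Figure D5:**
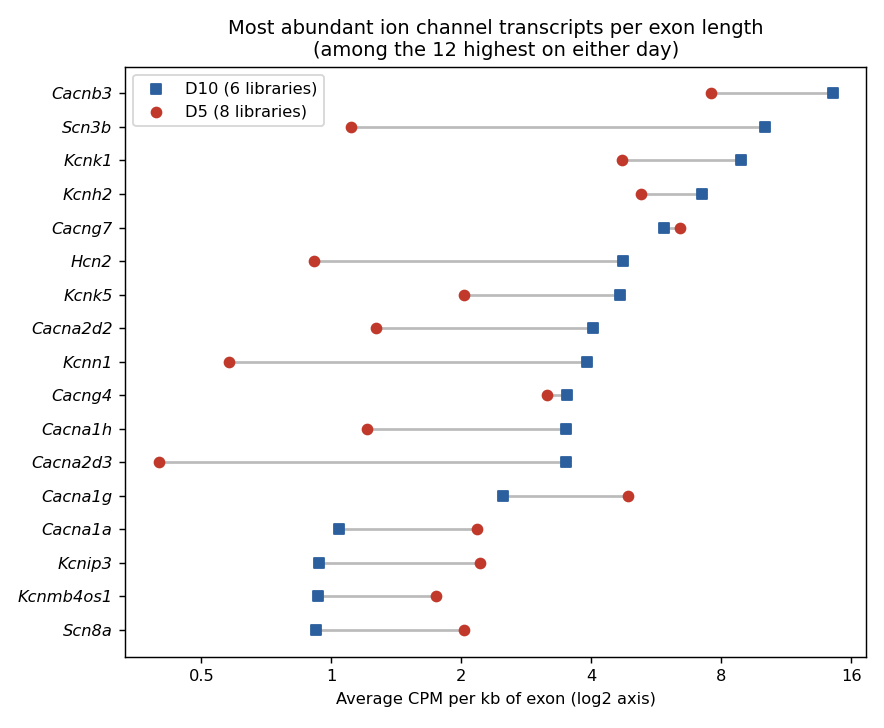
Average level in CPM per kb of merged exon (horizontal axis, log scale) of 17 of the most abundant channel genes on either day (rows), at D10 (squares, 6 samples) and D5 (circles, 8 samples). Cacnb3 is highest on both days, at 14.5 at D10 and 7.58 at D5.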

How the data were processed

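Comparisons of 14 libraries were used: 3 GLI1-induced and 3 control at D10, 4 GLI1-induced and 4 control at D5, grouped by their labels. Per the file headers, the authors deposited p-values, FDRs, log fold changes and an average log CPM by Entrez gene (log2 scale: the linear values sum to 1001340 CPM at D10 and 1001540 at D5). The fold change was taken to be log2 too, which nothing tests. The deposited FDR matches a Benjamini-Hochberg adjustment of the authors' p-values (largest difference 3.41e-05 at D10, 2.72e-06 at D5). Aligner, counting, strand setting, test, genome build and low-count filter were not given in the sources used here. Depth is unknown, so no interval covers counting error.

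Entrez identifiers were matched to symbols of a RefSeq table of GRCm38.p6 (94.6% matched on each day, 14891 at D10 and 14291 at D5). Of 142 symbols fitting the rule, 47 were in neither table. z was computed from the p-value and the sign of the fold change, the implied SE as fold change over z (none for p of 1: 3 members at D10, 2 at D5), and 95% intervals from it. The difference between days was z-tested, two-sided against a normal reference, with Benjamini-Hochberg adjustment over 14792 genes. This calculation was tested on simulated data with normal errors. That cannot show whether the authors' p-values fit a normal reference. Rescaled z values were divided by their spread in bins of 500 genes of like level.

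Positions and exon lengths came from GENCODE M21 (GRCm38), promoters from RefSeq. Named genes were Gli1, every called member or partner, on each day the 5 highest and 5 lowest fold changes above 1 log2 CPM, for each family without a call the smallest p at D5, and the 6 largest and 3 smallest level differences. Genes named beyond this (further family members beside a called one, the genes called at D5 with their D10 values, and the level examples per kb) were chosen after their values were seen. A few members are counted in totals but not reported by name or drawn here. Members, lists and tests were chosen with earlier results of these data known. Alternatives were other thresholds, Holm adjustment, a level minimum of 1 log2 CPM, a 2-fold minimum, rescaled z and repeated rows counted once. Python 3.11.15, pandas 2.3.3, NumPy 2.4.6, SciPy 1.17.1 and matplotlib 3.10.9 were used.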

Additional observations from a re-analysis of the deposited data

Results flagged for a closer look

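The log2 fold change of 3 channel genes differed between the days by the test of the difference itself (D10 minus D5). Kcna1 differed by 1.60, at 0.24 at D10 and -1.36 at D5. Kcnma1 differed by -1.55, at 0.39 at D10 and 1.94 at D5. Kcnh1 differed by 0.98, at 0.17 at D10 and -0.80 at D5. The single-day values are from the authors' deposited tables, and the days were separate sets of samples. Without values per sample, no check for a single sample far from its group was made.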

How the results depend on the processing

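The count of 6 channel genes called at D5 became 2 with Holm adjustment (1 higher) and 2 with a 2-fold minimum (1 higher). It was 4 at an adjusted p under 0.01, 6 under 0.1, and 5 with a level minimum or rescaled z. Over all 15108 genes at D5, the 671 calls became 242 with Holm adjustment and 250 with a 2-fold minimum. They were 433 under 0.01, 803 under 0.1, 579 with a level minimum and 773 with rescaled z. At D10 the count of channel genes was 0 under each alternative, although rescaling moved the calls over all genes there to 119, against 13. The count of 3 differences between days became 1 at an adjusted p under 0.01, and 4 with rescaled z, which adds Cacna1g. The partner count of 6 lay between 4 and 6. Of 56 recomputed results for named genes, 43 kept their call, 13 lost it and 0 reversed. No paired analysis was possible because the tables hold no values per sample. For the same reason leaving out each replicate was not run, and a single sample behind a call could not be looked for. Depth limits are unknown. The implied SE inherits the authors' test.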

Other observations

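Of the 95 channel genes, 17 were listed at D10 alone and 4 at D5 alone, and the filter that decided this was not given in the sources used here. Those at D10 alone include Kcna2, Kcnc2, Kcnd2, Kcnv2, Kcnq3, Kcnh6, Kcnh7, Kcnab1, Kcnk3, Kcnk16, Kcnmb2, Cacna1i, Cacng2, Cacng3, Cacng8 and Scn7a. In the authors' deposited table the most highly expressed of them by average log2 CPM were Cacng2 (1.92), Cacna1i (1.77), the remaining T-type calcium pore, and Scn7a and Kcnk3 (1.27 and 1.26). Those at D5 alone are Kcns3, Kcnip2, Kcnk13 and Scn4b, each at an average under 0.1 log2 CPM in the authors' deposited table. A gene listed on 1 day is not thereby shown to differ between days. No Kcne gene was listed on either day.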
